A study of Rattus norvegicus with 6 samples.

Results

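Gad1 and Gad2 encode the enzymes that make GABA, the main inhibitory transmitter of the brain. They were taken by their rat Ensembl identifiers, ENSRNOG00000000007 for Gad1 and ENSRNOG00000018200 for Gad2, and are 2 of the 26405 genes in the deposited count table. Both were among the 18206 genes with enough counts to be tested. Their messenger RNA was measured by RNA sequencing in 6 libraries of cultured rat cells, with 2 libraries each of astrocytes, neurons and oligodendrocyte precursor cells (OPCs). The 3 cell types were bought as different products of Life Technologies, and the labels name no strain, age, genotype or drug treatment. Astrocytes and OPCs were passaged 1 time, with 8 days in culture before the passage and 6 days after it. Neurons had 0 passages and 7 days in culture, so for neurons cell type cannot be told apart from passage and time in culture. For all 3 cell types, OPCs and astrocytes included, cell type also cannot be told apart from the product bought. The labels do not say whether the 2 libraries of a cell type came from separate cultures, so the tests measure only the spread between these libraries, which may be technical.

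GABA is made in 1 step, when glutamate decarboxylase removes a carboxyl group from glutamate with the help of the cofactor pyridoxal phosphate. The Gad1 product, GAD67, is found throughout the neuron and supplies much of its basal GABA. The Gad2 product, GAD65, is concentrated at nerve terminals, moves readily between its cofactor-bound active form and its inactive form, and supplies GABA for release. Both genes are widely used markers of GABAergic neurons. The Gad1 gene also gives shorter transcripts by alternative splicing in embryonic tissue, and a count per gene does not tell these apart from the full-length form.

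Total counts ranged from 22265917 in OPC replicate 1 to 102861667 in astrocyte replicate 1. Levels are given as CPM, counts scaled to a common library size with TMM factors, which adjust for differences in the make-up of the libraries. The reference tables at hand paired 0 of the table's identifiers with a symbol, so the labelled cell types could not be checked against their marker genes. For the same reason the other genes of the GABA pathway (transporters, breakdown enzymes, receptors) and the markers of other cell types are not analysed here.

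The upstream DNA of both genes is shown as background, and any link to their levels was not tested. The DNA comes from RefSeq on the build GRCr8, in windows of 250 bases before and 50 after a start site of each gene. Only bases ahead of the first annotated base of the gene are printed, 5′ to 3′ on the plus strand. Capitals mark the letters TATAAA, the core of a TATA box, found 1 time in the Gad1 window and 0 times in the Gad2 window.
Gad1, chr3:75777202-75777259, 58 bases: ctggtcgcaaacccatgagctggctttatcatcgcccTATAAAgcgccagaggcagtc
Gad2, chr17:89671468-89671717, 250 bases: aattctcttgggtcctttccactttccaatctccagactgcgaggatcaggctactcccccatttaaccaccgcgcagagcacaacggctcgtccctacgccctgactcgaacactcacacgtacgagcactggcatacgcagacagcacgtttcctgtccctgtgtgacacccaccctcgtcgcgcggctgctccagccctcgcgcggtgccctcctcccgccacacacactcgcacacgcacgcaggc

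Both windows were rich in G and C and in the dinucleotide CG. Over the whole window of 300 bases the G and C content was 67.7% for Gad1 and 63.7% for Gad2, against a median of 51.7% over 33469 rat gene windows of that length. The Gad1 window held 26 CG dinucleotides and the Gad2 window 29, against a median of 7. Other motifs were searched on both strands. TATAAA was present in 14.2% of all windows. CANNTG, the E-box, was found 1 time for Gad1 and 0 times for Gad2 and was present in 72.1% of all windows. GGGCGG, the GC box, was also found 1 time for Gad1 and 0 times for Gad2, with 33.1% of all windows holding it. TAATTA, a core bound by many homeodomain proteins, was found in neither and in 5.36% of all windows. The annotated Gad1 gene begins ahead of the start site used for its window, so most of that window lies within the gene. The Gad1 E-box and GC box, at -189 and -93 bases from that start site, fall within the gene. TATAAA, at -213, lies ahead of it. These matches describe the letters only.

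Both genes were highest in neurons, lower in OPCs and lowest in astrocytes. In neurons Gad1 had 5121 counts (56.0 CPM) in replicate 1 and 1029 counts (17.8 CPM) in replicate 2. In OPCs it had 149 counts (5.73 CPM) and 179 counts (3.88 CPM), and in astrocytes 64 counts (0.784 CPM) and 38 counts (0.905 CPM). The ranges of the 3 cell types did not overlap for Gad1, and its astrocyte libraries lay within each other's counting error.

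Gad2 showed the same order with a steeper drop at the low end. Its neuron libraries had 2128 counts (23.3 CPM) and 373 counts (6.45 CPM), and its OPC libraries 85 counts (3.27 CPM) and 67 counts (1.45 CPM). Astrocyte replicate 1 had 2 counts (0.0245 CPM) and astrocyte replicate 2 had 0, which allows a level of up to 0.0715 CPM, the value of 3 counts in that library. The ranges again did not overlap, but Gad2 in neuron replicate 2 was only 1.97-fold above OPC replicate 1. Of the 18206 tested genes, 8.09% had all neuron libraries above all OPC libraries and all OPC libraries above all astrocyte libraries. In these bulk samples fewer cells that carry a transcript and less transcript per cell cannot be told apart.

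**Figure D1:**
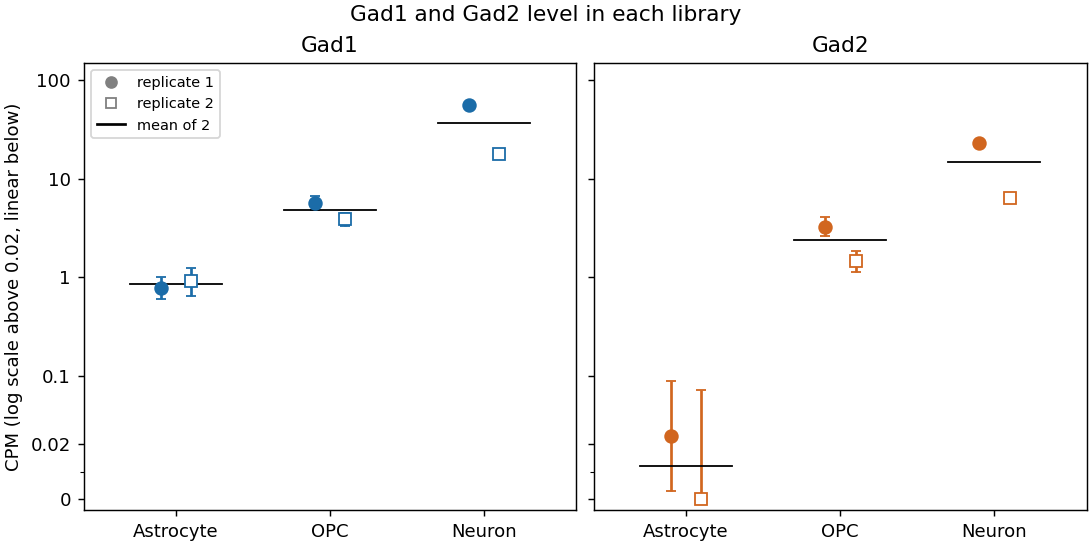
CPM of Gad1 (left) and Gad2 (right) in each library, on a log scale above 0.02 and a linear scale below it. Points are single libraries with exact 95% Poisson intervals of counting error (for the count of 0, up to the value of 3 counts), and bars are means of 2 libraries. Neuron libraries are highest for both genes, and Gad2 in astrocytes rests on 2 counts.

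The first comparison asked how far GABA synthesis transcripts in neurons stood above those in astrocytes. Both genes were higher in neurons. The mean Gad1 level was 36.9 ± 27.0 CPM in neurons against 0.845 ± 0.085 CPM in astrocytes (SD, n = 2 each). The edgeR quasi-likelihood test put its log2 fold change at 5.45 ± 0.67 (SE) with an adjusted p of 0.00163, a 43.7-fold difference. The fold between single libraries ran from 19.7 to 71.4 over the 4 neuron and astrocyte pairs. Gad2 stood at 14.9 ± 11.9 CPM in neurons and had 2 counts in all in astrocytes. The ratio of its pooled counts, scaled to library size, was 1036 (95% counting interval 286 to 8556; edgeR adjusted p = 0.00162). The fitted log2 fold change of Gad2, 9.71 ± 1.20 (SE), depends on the default prior count of the edgeR fit because so few astrocyte counts enter it. Leaving out astrocyte replicate 1 left 0 astrocyte counts and gave 12.62, and leaving out neuron replicate 1 gave 8.48. For Gad1 the log2 fold change came to 4.40 when neuron replicate 1 was left out and 6.05 when neuron replicate 2 was. Both genes passed the test, as did 14.5% of all tested genes in this direction. By fitted fold change Gad2 ranked 55 and Gad1 654 of the 18206 genes.

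The second comparison set neurons against OPCs, and here the call for Gad2 failed. Gad1 was higher in neurons, against 4.80 ± 1.31 CPM in OPCs (SD, n = 2), and its log2 fold change was 2.94 ± 0.60 (SE) at an edgeR adjusted p of 0.0245. The difference was 7.70-fold, with a 95% interval of 1.54 to 4.35 on the log2 scale. Gad2 stood at 2.36 ± 1.29 CPM in OPCs, and its log2 fold change of 2.66 ± 0.79 (SE) gave an edgeR adjusted p of 0.0732. The 95% interval of that difference, 0.79 to 4.54 before adjustment over all genes, spans that of Gad1, so nothing here shows that the genes differed in this comparison. In the same direction 7.73% of tested genes were called, and Gad1 and Gad2 lay at the 93.2 and 92.0 percentiles of the fold change. Mean OPC levels were 13.0% of the neuron level for Gad1 and 15.9% for Gad2.

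The size of the neuron and OPC difference depended on single libraries. Its direction stayed the same, but every neuron library lay above every OPC library for both genes. Leaving out 1 library is therefore no check of direction. For Gad1 the log2 fold change fell to 1.89 without neuron replicate 1 and came to 3.55 without neuron replicate 2. Both passed the edgeR test, but neither fit held any spread between neuron libraries, so passing is no check against it. Without OPC replicate 1 the Gad1 value was 3.25 and without OPC replicate 2 it was 2.67. The Gad1 call was lost in both of these fits. Calls over all tested genes also fell steeply in them, so the loss is not particular to Gad1. For Gad2 the log2 fold change was 1.46 without neuron replicate 1 (edgeR adjusted p = 0.233) and 3.31 without neuron replicate 2 (edgeR adjusted p = 0.0214). It was 3.36 without OPC replicate 1 (edgeR adjusted p = 0.167) and 2.16 without OPC replicate 2 (edgeR adjusted p = 0.337). Gad2 was also called by DESeq2, whose adjusted p was 0.00449, and in the edgeR fits with no low-count filter and with replicate numbers blocked, at adjusted p of 0.0362 and 0.0346.

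The third comparison set OPCs against astrocytes, the pair with the lowest counts. Both genes were higher in OPCs. For Gad1 the log2 fold change was 2.51 ± 0.60 (SE) at an edgeR adjusted p of 0.0223, a 5.68-fold difference. Single library pairs gave folds of 4.28 to 7.31. That test took its spread from all 6 libraries, neurons included. A fit of the 4 OPC and astrocyte libraries alone gave 2.51 at an edgeR adjusted p of 0.00694, and it called more genes in all. The Gad2 pooled ratio was 130 (95% counting interval 35.4 to 1084), and its fitted log2 fold change was 7.05 ± 1.15 (SE) at an edgeR adjusted p of 0.00529. It was 9.98 in the fit that left out astrocyte replicate 1, where no Gad2 count from astrocytes entered. It was 6.38 without OPC replicate 1 and 6.50 without astrocyte replicate 2. Gad2 ranked 165 and Gad1 1345 of the 18206 genes by fitted fold change, and 10.6% of tested genes were called higher in OPCs. The Gad1 call was lost when any astrocyte or OPC library was left out, at log2 fold changes of 2.20 to 2.84. Calls over all tested genes also fell in each of these fits, so the loss is not particular to Gad1. The Gad1 call was also lost with limma-voom, at an adjusted p of 0.107. Gad1 passed all 3 comparisons in the main fit, as did 1.27% of the tested genes in the same directions.

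**Figure D2:**
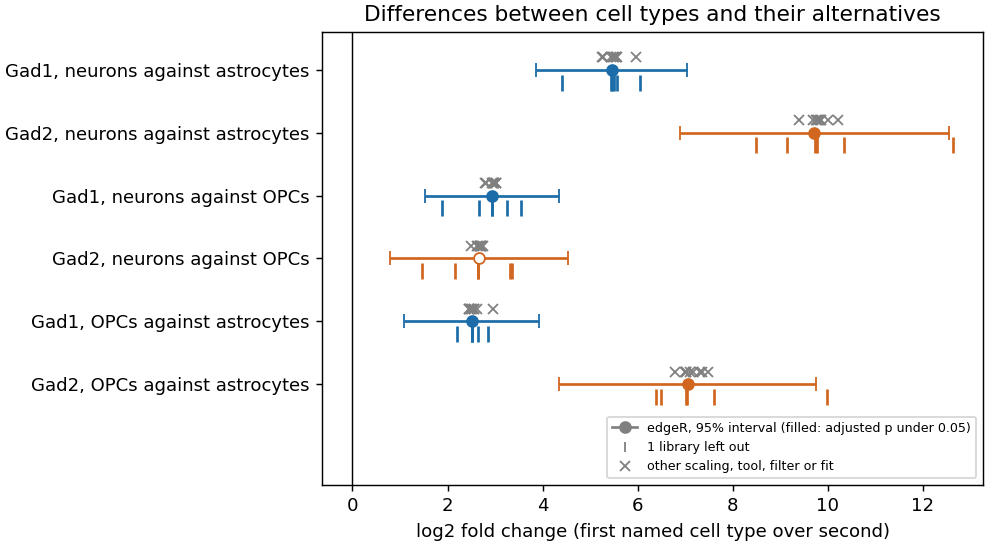
Log2 fold change of Gad1 and Gad2 in each comparison of cell types, first named over second. Circles are edgeR estimates with 95% intervals, filled where the adjusted p was under 0.05, ticks are fits with 1 library left out, and crosses are other scalings, tools, filters or fits. All values lie above 0, and Gad2 in neurons against OPCs is the open circle.

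The balance between the genes was compared as the Gad2 share of the Gad1 and Gad2 counts, which needs no scaling to library size. Transcript lengths were not used here, so the share says nothing of which messenger RNA was more abundant, and only differences of the share between libraries are read. In neurons the share was 29.4% of 7249 counts in replicate 1 (exact 95% binomial interval 28.3 to 30.4) and 26.6% of 1402 counts in replicate 2 (24.3 to 29.0). In OPCs it was 36.3% of 234 counts (30.2 to 42.8) and 27.2% of 246 counts (21.8 to 33.3). The neuron mean of 28.0 ± 1.9% and the OPC mean of 31.8 ± 6.4% (SD, n = 2 each) differed by less than the SD of the OPC libraries. An exact permutation test of 2 libraries against 2 cannot go below 0.333, so this comparison of shares could not have been called different.

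Astrocytes stood apart in this share. Replicate 1 had 3.03% of 66 counts (0.369 to 10.5) and replicate 2 had 0 of 38 counts (0 to 9.25). Their intervals lay wholly below those of the neuron and OPC libraries. Over both astrocyte libraries, 104 counts would hold 30.1 Gad2 counts at the pooled neuron share of 28.9%, and 2 were found. Against neurons and against OPCs the two-sided exact permutation p was 0.333, which is the smallest that 2 libraries against 2 can give. The intervals cover counting error only, and reads are not independent molecules.

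**Figure D3:**
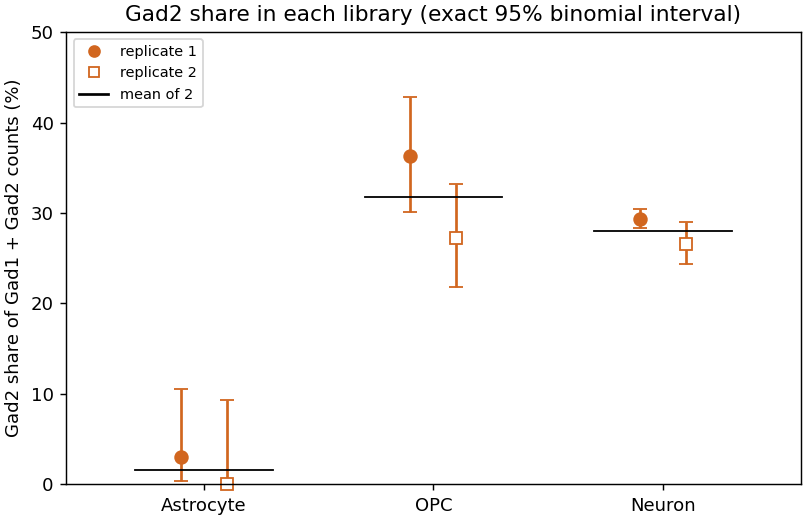
Gad2 counts as a percent of Gad1 and Gad2 counts in each library, with exact 95% binomial intervals of counting error and bars at the mean of 2 libraries. Neuron and OPC libraries lie between 26.6% and 36.3%, and astrocyte libraries at 3.03% and 0%.

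The neuron libraries differed from each other in both genes in the same direction. Gad1 was 3.15-fold higher in replicate 1 (95% counting interval 2.94 to 3.37) and Gad2 3.61-fold higher (3.23 to 4.04). The difference is far outside counting error, but with 1 library on each side it has no replicate check. On the log2 scale these ratios were 1.65 and 1.85, and 1.87 and 2.07 on total counts alone. Over all 18206 tested genes the log2 difference between the neuron libraries had a median of 0.04 and an SD of 1.15. Gad1 lay at the 90.3 percentile of it and Gad2 at the 91.9 percentile, with 1773 and 1466 genes further towards replicate 1.

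The genes called higher in neurons than in both OPCs and astrocytes, a class that held Gad1 but not Gad2, leaned less far the same way. Of these 881 genes, 60.2% were higher in neuron replicate 1, against 52.2% of all tested genes. Their median log2 difference was 0.23, with the middle 50% between -0.44 and 0.98. Gad1 lay at the 88.5 percentile of that class, and the Gad2 value, set beside it from outside the class, at the 90.7 percentile. The class was chosen on these libraries, so these values are a description.

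Replicate 1 was also the higher OPC library for both genes. The ratio was 1.48 for Gad1 (95% counting interval 1.18 to 1.85) and 2.25 for Gad2 (1.62 to 3.15), at the 80.2 and 93.9 percentiles of all tested genes. In astrocytes Gad1 had a ratio of 0.866 (0.571 to 1.33), an interval that includes 1, and the Gad2 counts of 2 and 0 allowed no reading. What the replicate numbers mark is not given in the labels, and its part in these differences was not tested.

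**Figure D4:**
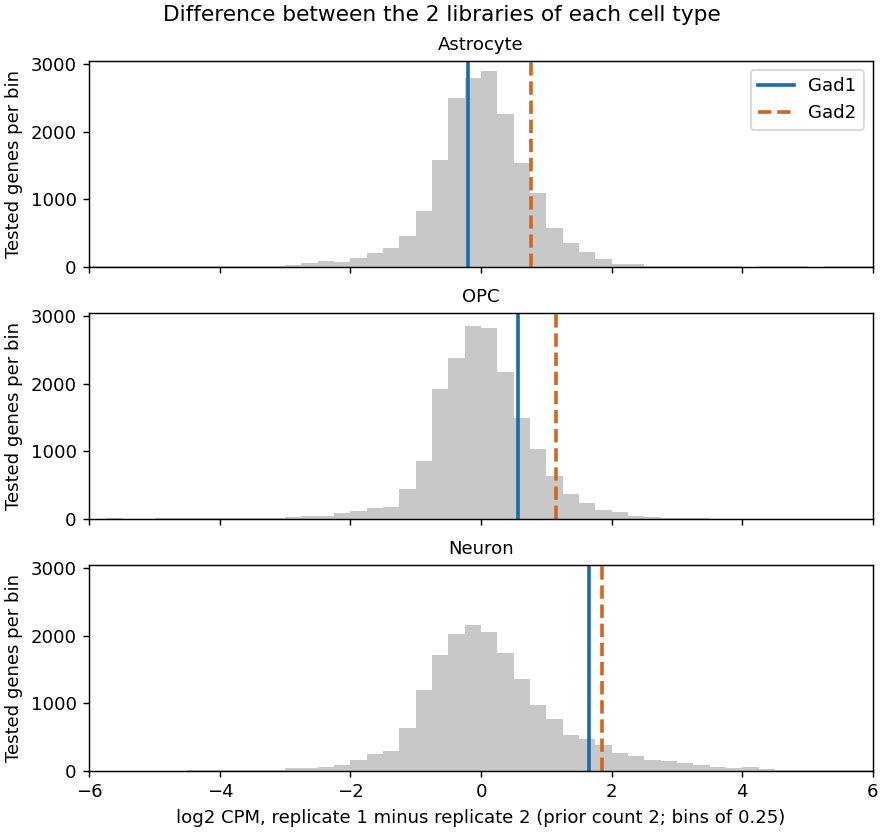
Histograms of the log2 CPM difference between replicate 1 and replicate 2 over the 18206 tested genes in each cell type, shown from -6 to 6, with lines at Gad1 and Gad2. In neurons both lines lie in the right tail, at 1.65 and 1.84 with a prior count of 2. The Gad2 line in astrocytes rests on 2 counts.

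Likeness of pattern was measured by Pearson's r of log2 CPM over the 6 libraries, among genes with a mean of at least 1 CPM. These libraries form 3 cell types, so the order of the cell types alone can give a high r, and r says nothing of the size of the differences. Gad1 and Gad2 had an r of 0.96 with each other. With Gad2 counts of 2 and 0 in astrocytes, those log2 values rest partly on the prior count of 2, and so does every r with Gad2. By this measure Gad2 ranked 255 of 15804 genes in likeness to Gad1, and Gad1 ranked 314 in likeness to Gad2. The gene most like Gad1 was ENSRNOG00000001874 (r = 0.999), at 18.6 and 8.82 CPM in neurons, 3.62 and 2.68 CPM in OPCs and 0.968 and 0.976 CPM in astrocytes. The gene most like Gad2 was ENSRNOG00000025504 (r = 0.998), with a far narrower range of 136 and 120 CPM in neurons, 111 and 98.4 CPM in OPCs and 68.5 and 67.0 CPM in astrocytes. The files do not pair these identifiers with names. An r over 0.95 was reached by 378 genes for Gad1 and 463 for Gad2.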

How the data were processed

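The authors deposited raw counts for each Ensembl rat gene in 6 libraries, as whole numbers that sum to different totals. RNA was purified with a column kit and was sequenced on an Illumina instrument, per the labels' protocols. The aligner, counting tool, genome build, annotation and use of strand were not given in the sources used here. Reads of genes that overlap on opposite strands may therefore be mixed. The description label of each sample gave its column. No other gene had the counts of Gad1 or Gad2 in all libraries.

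Genes were kept by filterByExpr (minimum count 10, minimum total 15) and fitted together in edgeR 4.0.16 (R 4.3.3) with TMM scaling (factors 0.794 to 1.21) and 1 coefficient per cell type. The robust quasi-likelihood F test had 3 residual degrees of freedom per gene. Its p-values and the fold change intervals used more than these, since the fit adds degrees of freedom from spread pooled over genes. The p-values were adjusted by Benjamini-Hochberg over all 18206 tested genes at 0.05. Standard errors were taken as the fold change over the square root of F. Intervals are 95%. Log2 CPM used a prior count of 2, and the edgeR fits used the tool's default, which was not varied.

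The genes, the gene lists and the tests were chosen with earlier results of these data known. The rule for named genes took both genes, members of GABA lists and the 5 genes most like each by correlation. Without names in the files, the lists were left out and 2 identifiers are printed. Alternatives were other scalings, DESeq2 1.42.0, limma-voom (limma 3.58.1), other filters, fits of 4 libraries, a replicate block and omission of each library.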

Additional observations from a re-analysis of the deposited data

How the results depend on the processing

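Over the 6 comparisons of Gad1 and Gad2 between cell types, 90 alternative values were computed. Of these 79 kept direction and side of the threshold, 7 lost the call, 4 gained one and 0 reversed. The ranges of the cell types did not overlap for either gene, so omitting 1 library is no check of direction. With limma-voom Gad1 in OPCs against astrocytes had a log2 fold change of 2.45 and lost its call. Gad2 in neurons against OPCs gained one with DESeq2 (2.70), with no low-count filter (2.68) and with the replicate block (2.49). Omitting 1 library gave 4.40 to 6.05 (Gad1) and 8.48 to 12.62 (Gad2) for neurons against astrocytes, 1.89 to 3.55 and 1.46 to 3.36 for neurons against OPCs, and 2.20 to 2.84 and 6.38 to 9.98 for OPCs against astrocytes. A group left with 1 library is assumed to vary like the others. The cause of lost and gained calls was not tested.

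Total counts alone moved the log2 ratio of neuron replicate 1 to 2 to 1.87 for Gad1 and 2.07 for Gad2. Over all genes this scaling shifted the median log2 difference from -0.06 to 0.40 for neurons against astrocytes and from -0.04 to 0.39 for OPCs against astrocytes, and the share of calls on the higher side from 47.7% to 66.2% and from 41.6% to 58.6%. Gad1 then stood at 5.97 and 2.95 and Gad2 at 10.22 and 7.49 in these comparisons.

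The replicate block gave 5.27 and 9.84 for neurons against astrocytes, 2.82 for Gad1 in neurons against OPCs, and 2.45 and 7.35 for OPCs against astrocytes, and changed no call but that of Gad2 named above. Its share of neuron and OPC calls higher in neurons was 51.9%, against 62.3%. Same-numbered libraries deviated together with correlations of 0.147 (astrocyte and neuron), 0.292 (astrocyte and OPC) and 0.162 (neuron and OPC). No label says what a number marks, and 2 numbers per cell type are too few to settle whether they pair the libraries.

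The count of all genes called, 5532 for neurons against astrocytes, was 3306 and 3486 without astrocyte replicates 1 and 2. For neurons against OPCs, 2260 became 4031 with DESeq2, 225 without OPC replicate 1 and 116 without OPC replicate 2. For OPCs against astrocytes, 4649 became 2645 without astrocyte replicate 1, and 2276 and 2182 without OPC replicates 1 and 2. Gad2 had 2 counts in astrocytes, and its folds against that group rest on them.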
